A study of Mus musculus with 96 samples.

Results

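The 7 genes described here are Kap, Serpina1a, Serpina1b, Serpina1d, Serpina1f, Akr1c18 and Spp2, out of 54532 genes in the table. They were chosen on their measured transcript levels, for steep differences between the successive parts of the proximal tubule, so their levels in those parts are given as a description, with no test. The data are RNA sequencing of glomeruli and 14 tubule segments dissected by hand from kidneys of male C57BL/6 mice aged 6 to 8 weeks, in 93 samples from 53 mice. The labels name no transgene, deletion or treatment, and all groups share strain and sex. The proximal groups are PTS1 (the first convoluted part, 3 mice), PTS2 (the straight part running through the cortical rays, 5 mice) and PTS3 (the end of the straight part, lying in the outer stripe, 3 mice). The thin limb groups are DTL1 (short loops, 3 mice), DTL2 and DTL3 (long loops in the outer and inner medulla, 3 mice each) and ATL (ascending, 4 mice). MTAL (3 mice) and CTAL (5) are the medullary and cortical thick limbs, DCT (3) and CNT (3) the distal convoluted and connecting tubules, CCD (5), OMCD (4) and IMCD (3) the collecting duct of cortex, outer and inner medulla, and the glomerulus was taken from 3 mice. Values are TPM, transcript abundances scaled to transcript length and to the same total in every sample. Where a mouse gave several pieces of a segment they were averaged, and each value below is 1 mouse unless a piece is named. The labels do not say whether pieces were libraries of separate tubules. Read depth cannot be had from TPM, so the precision of each value rests on the spread between mice.

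The proximal tubule reabsorbs most of the glomerular filtrate, and its successive parts differ in their transporters and enzymes. In mice its straight part is also a target of androgen. Kap encodes kidney androgen-regulated protein, a secreted protein made in the proximal tubule of male mice. The Serpina1 genes are named after alpha-1 antitrypsin, an inhibitor of serine proteases such as neutrophil elastase that is best known as a liver product. Serpina1f is far less like the other copies, with 50.3% to 54.1% transcript identity, so its level is not read here as antitrypsin. Akr1c18 encodes an aldo-keto reductase that inactivates progesterone. Spp2 encodes a secreted phosphoprotein with a cystatin-like domain, first studied in bone matrix.

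The bases before the annotated starts of Serpina1d, Serpina1f, Kap and Serpina1e, a copy outside the 7, are printed because the copies differ so widely in level. Serpina1d was abundant in PTS3, and Serpina1e was below 1 TPM there although its promoter is nearly the same. Serpina1f matched Serpina1d in level with a different promoter, and Kap was the most abundant transcript of all. Each window holds 250 bases from RefSeq on GRCm38.p6, on the minus strand, written 5′ to 3′ up to the start. They lie at chr12:103773634-103773883 (Serpina1d), chr12:103956898-103957147 (Serpina1e), chr12:103695530-103695779 (Serpina1f) and chr6:133853668-133853917 (Kap). Capitals mark matches on either strand to AGAACA (a hexamer of steroid hormone response elements, TGTTCT when read from the other strand), GTTAAT (part of HNF1 elements) and TATAAA (the TATA box).
Serpina1d: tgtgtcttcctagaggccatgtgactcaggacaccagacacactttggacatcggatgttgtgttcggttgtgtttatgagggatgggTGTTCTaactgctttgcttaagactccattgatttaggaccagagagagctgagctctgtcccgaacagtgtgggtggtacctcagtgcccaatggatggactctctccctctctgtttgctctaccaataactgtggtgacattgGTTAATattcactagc
Serpina1e: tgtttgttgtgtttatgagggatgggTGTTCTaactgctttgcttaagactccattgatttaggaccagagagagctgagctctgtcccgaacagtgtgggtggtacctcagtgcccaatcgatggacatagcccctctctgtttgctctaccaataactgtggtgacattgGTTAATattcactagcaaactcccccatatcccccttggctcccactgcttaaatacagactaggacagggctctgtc
Serpina1f: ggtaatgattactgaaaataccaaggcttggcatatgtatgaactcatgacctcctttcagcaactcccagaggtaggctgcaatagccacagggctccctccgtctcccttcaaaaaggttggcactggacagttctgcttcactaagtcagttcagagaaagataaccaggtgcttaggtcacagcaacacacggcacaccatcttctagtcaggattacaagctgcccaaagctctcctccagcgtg
Kap: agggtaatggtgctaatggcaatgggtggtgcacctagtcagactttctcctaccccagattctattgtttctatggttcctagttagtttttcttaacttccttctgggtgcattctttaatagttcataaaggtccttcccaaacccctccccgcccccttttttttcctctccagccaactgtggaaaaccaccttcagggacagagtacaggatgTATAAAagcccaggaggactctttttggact
Where the Serpina1d and Serpina1e windows overlap, 181 of 189 aligned bases (95.8%) were identical. Counted from the start, AGAACA lay at -162 in Serpina1d and at -224 in Serpina1e, and GTTAAT at -16 and -78. Serpina1a, Serpina1b and Serpina1c held the same pair of matches, and AGAACA was found in Spp2. The Kap window held TATAAA at -31. No match to these letters, or to the HNF4A core CAAAGTCC, was found in the windows of Serpina1f and Akr1c18. Among 32851 promoters of this length, 16.1% held AGAACA, 6.43% GTTAAT, 12.4% TATAAA and 1.2% CAAAGTCC. A match is a string of letters and not a measured binding site. All 9 genes looked up, the 7 and Serpina1c and Serpina1e, were found in the promoter table.

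Segment markers were checked against the labels of the proximal groups, and not all of them followed those labels. The glucose transporter Slc5a2 averaged 2792 TPM in PTS1, 0.688 in PTS2 and 0 in PTS3. Slc22a6, a basolateral organic anion transporter, averaged 980.7 TPM in PTS2 and 1.45 in PTS3, and Slc7a13, an apical transporter of acidic amino acids, 4.64 TPM in PTS1, 2045 in PTS2 and 1502 in PTS3. Of the genes listed as PTS2 markers, Slc22a8, another organic anion transporter, went against its list, with 257.7 TPM in PTS1 and 56.4 in PTS2, and of the 3 listed for PTS3, Slc7a13 and Slc22a7 (2468 TPM in PTS2 and 1460 in PTS3) were higher in PTS2, as was the sum of the 3, at 4914 TPM against 4030. The other, Cyp7b1, averaged 401.2 TPM in PTS2 and 1068 in PTS3. Some pieces stood apart from the other piece of their mouse, and those of DCT and CCD are given beside the values they touch. In PTS1 mouse 1, piece b had 40.15 TPM summed over 3 straight-part markers (Slc7a13, Slc22a7 and Cyp7b1), against 0.32 to 0.61 in the other 4 PTS1 samples. In DTL2 mouse 1, piece b had 659.1 TPM summed over 8 proximal markers, against 14.7 to 120.2 in the other 6 DTL2 samples. Odorant and vomeronasal receptor genes, most of which are silent outside sensory tissue, were at 1 TPM or more in a median of 805 genes per DTL1 sample, 326 per DTL2 sample and 32 per PTS1 sample, of 1740, but in 1 in PTS2 and 2.5 in PTS3. The medians were 609.5 in the glomerulus, 475 in DTL3, 302.5 in ATL, 96 in OMCD and 4 in IMCD, and from 0 to 2 in MTAL, CTAL, DCT, CNT and CCD. In bulk pieces such as these, fewer cells of a type and less RNA per cell cannot be told apart.

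Kap was the most abundant transcript in PTS2 and in PTS3. In PTS1 its level was 742.4 TPM in mouse 1, 15.2 in mouse 2 and 3.95 in mouse 3. The 5 PTS2 mice had 29994, 40040, 27410, 47510 and 35546 TPM, and the 3 PTS3 mice 63323, 83372 and 79431 TPM. The 3 groups did not overlap. The mean was 36100 ± 8044 TPM (SD, n = 5) in PTS2 and 75380 ± 10620 (SD, n = 3) in PTS3, 2.09 times as high, so that Kap held 3.61% and 7.54% of all transcripts there. The PTS1 mean of 253.8 ± 423.1 TPM (SD, n = 3) rested on the 1 piece named above: mouse 1 had 6.03 TPM in piece a and 1478.78 in piece b. Akr1c18 was 0.20 TPM and Serpina1d and Serpina1f were listed at 0 in that piece. How straight-part RNA bears on its Kap value was not tested.

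Past the proximal tubule Kap remained measurable in most groups. DTL1 followed at 4198, 1030 and 2266 TPM in its 3 mice, below every PTS2 mouse and above every mouse of PTS1 and of the other groups. Then came CCD (238.4 ± 182.5 TPM, SD, n = 5), DTL2 (230.4 ± 182.9, n = 3) and CTAL (200.5 ± 123.8, n = 5), whose ranges overlapped one another and that of PTS1. In CCD mouse 3, piece b gave 804.3 TPM of Kap and piece a 74.1, and the 8 proximal markers summed to 182.9 and 33.4 TPM in them. In DTL2 mouse 1, the piece b named above gave 851.59 TPM of Kap and piece a 30.7, and without that mouse the DTL2 mean was 125 TPM. Means were 42.5 TPM in CNT, 27.3 in DCT, 16.0 in ATL and 11.4 in DTL3, and from 0.759 in IMCD to 7.33 in the glomerulus elsewhere, each range overlapping that of its neighbour in the order. Single mice carried several of these means: CNT was 113.04, 8.795 and 5.725 TPM, DCT 49.755, 13.98 and 18.205, and DTL3 0, 30.55 and 3.52. Without its highest mouse the mean fell to 7.26 TPM in CNT, 16.1 in DCT, 7.57 in ATL and 1.76 in DTL3, so the order of these groups depends on which mice are counted. The same holds of the lower groups, where the mean without the highest mouse was 2.35 TPM in the glomerulus, 3.27 in OMCD, 0.627 in MTAL and 0.295 in IMCD.

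Akr1c18 was nearly absent from PTS1, at 0.17, 0.04 and 0 TPM. It was 234.9, 195.2, 134.7, 269.9 and 164.4 TPM in the PTS2 mice and 958.2, 815.4 and 1093 TPM in the PTS3 mice, with no overlap. The mean of 955.6 ± 139 TPM (SD, n = 3) in PTS3 was 4.78 times the 199.8 ± 54 (SD, n = 5) in PTS2, against the 2.09 of Kap. In DTL1 Akr1c18 was 207.5, 106.9 and 271 TPM, which overlapped the PTS2 range of 134.7 to 269.9. In DTL2 it was 45.8 TPM in mouse 1, whose piece b gave 91.58 and piece a 0, and 4.75 and 4.74 in the others. The next group, ATL, averaged 1.495 ± 2.79 TPM (SD, n = 4), a mean that rested on mouse 4 (5.67 TPM). Without that mouse the ATL mean was 0.103 TPM, below the 0.525 of CCD.

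Among the Serpina1 copies, Serpina1d and Serpina1f dominated. Serpina1d was 0.025, 0.085 and 0 TPM in PTS1. It was 390.3, 542.9, 426.9, 603.1 and 687 TPM in PTS2 and 1419, 1173 and 871.6 TPM in PTS3. Serpina1f was 0.025, 0.035 and 0 TPM in PTS1. The PTS2 mice had 410.3, 522.7, 539.3, 591.1 and 485.9 TPM of Serpina1f and the PTS3 mice 1254, 1128 and 1188. For both genes the PTS2 and PTS3 mice did not overlap, and the PTS3 mean was 2.18 times the PTS2 mean for Serpina1d and 2.33 times for Serpina1f. Of the 6 copies summed, Serpina1d made up 49.4% in PTS2 and 46.4% in PTS3, and Serpina1f 47.5% and 47.8%.

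Serpina1a and Serpina1b were minor copies with a steeper step. Serpina1a was 12.5, 15.5, 12.5, 15.1 and 19.6 TPM in the PTS2 mice and 82.5, 55.6 and 70.9 in the PTS3 mice, a mean 4.63 times as high. Serpina1b was 9.97, 6.99, 5.57, 9.32 and 10.3 TPM in PTS2 and 60, 42 and 62 in PTS3, a mean 6.49 times as high. Both were at 0.05 TPM or less in every PTS1 mouse. In PTS3 mouse 1 the pieces gave 32.85 and 87.24 TPM of Serpina1b, and 1257 and 1250 of Serpina1f, while in PTS2 mouse 4 they gave 5.59 and 5.55 of Serpina1b. Serpina1c averaged 9.47 TPM in PTS2 and 18.5 in PTS3, and Serpina1e 0.144 and 0.677.

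The split among copies a to e is uncertain because they can share reads. In the transcripts compared (GENCODE), Serpina1a and Serpina1c were 98.3% identical and Serpina1b and Serpina1d 96.4%. Of all stretches of 50 bases, 72.2% of Serpina1a, 45% of Serpina1b, 48% of Serpina1d and 37.9% of Serpina1e also occurred in another copy. None did for Serpina1f (0 of 1520), which was 50.3% to 54.1% identical to the others. The sum of Serpina1a, Serpina1b, Serpina1d and Serpina1f averaged 0.103 ± 0.0651 TPM (SD, n = 3) in PTS1, 1063 ± 164.4 (SD, n = 5) in PTS2 and 2469 ± 317.3 (SD, n = 3) in PTS3. Adding Serpina1c and Serpina1e gave 0.14, 1073 and 2488.

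Spp2 ran the other way. The 3 PTS1 mice had 3789, 3270 and 3724 TPM, a mean of 3595 ± 282.7 (SD, n = 3) that ranked 29th of all genes in PTS1. The PTS2 mice had 21.1, 18.5, 14.7, 14.3 and 17.1 TPM, and the PTS3 mice 0.385, 2.6 and 5.4. Mean Spp2 in PTS1 was 209 times that of PTS2, which was 6.15 times that of PTS3. Without PTS3 mouse 3 the PTS3 mean fell from 2.793 to 1.49 TPM, so the second ratio depends on that mouse. DCT followed PTS2 with a mean of 8.86 TPM that rested on mouse 1 (26.2 TPM, against 0.22 and 0.195 in the others). In that mouse piece b gave 50.36 TPM of Spp2 and piece a 1.96, and the 8 proximal markers summed to 770.5 TPM in piece b and 76.8 in piece a. The part of proximal RNA in that value was not tested. Spp2 was listed at 0 in all mice of DTL2 and ATL.

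**Figure D1:**
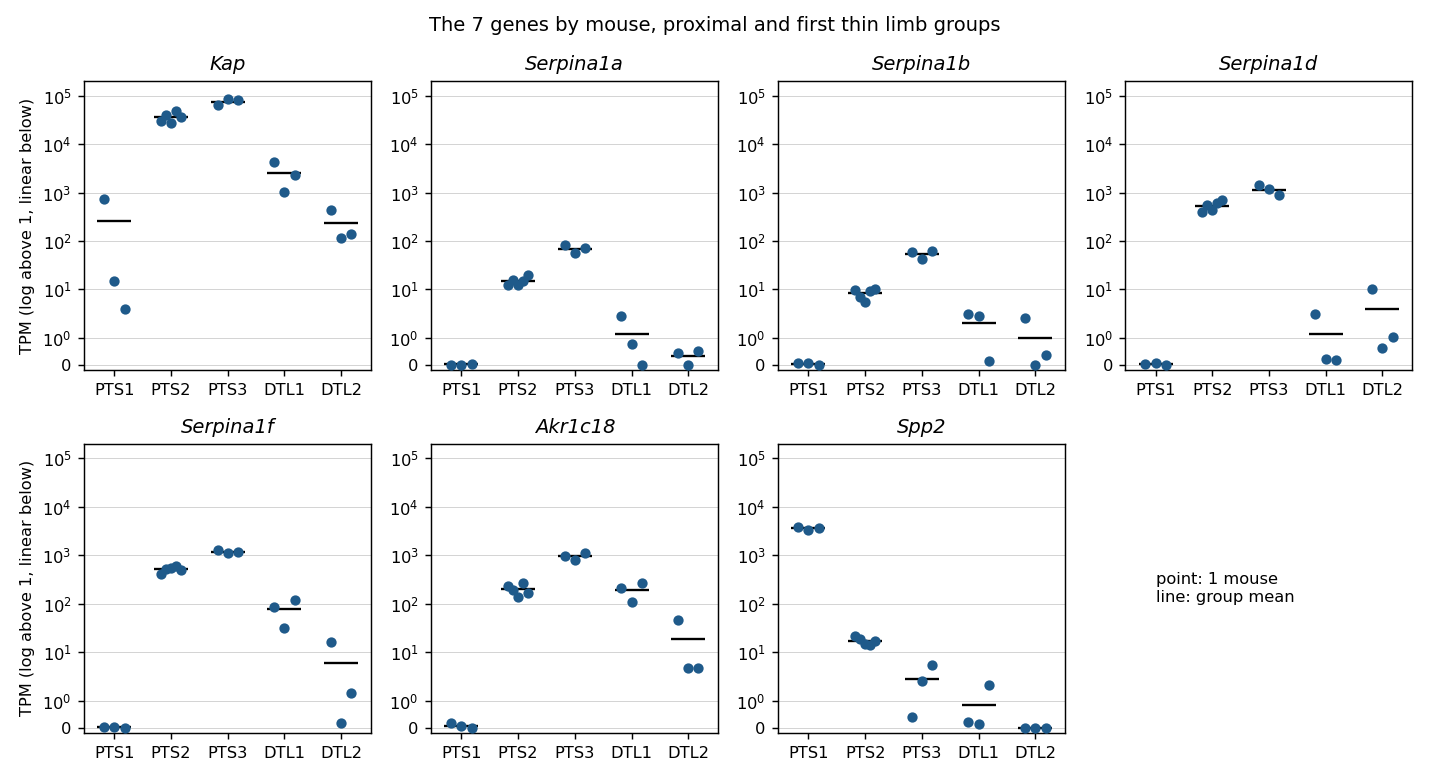
TPM of each gene (y axis, log above 1 and linear below) in the mice of PTS1, PTS2, PTS3, DTL1 and DTL2 (x axis), with 1 point per mouse and a line at the group mean. In every panel except that of Spp2 the PTS3 mice are highest, and in the Spp2 panel the 3 PTS1 mice stand at 3270 to 3789 TPM.

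**Figure D2:**
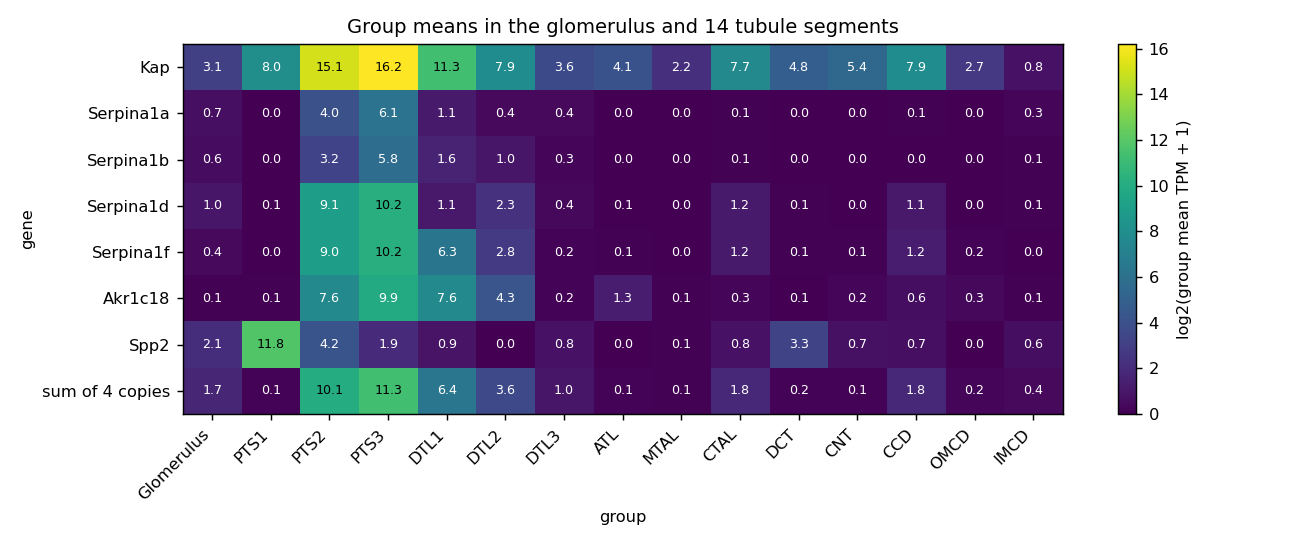
Group means of TPM as log2(mean + 1) (colour and printed value) for the 7 genes and the sum of the 4 Serpina1 copies (rows) in all 15 groups (columns). Kap is the row with values above 2 in every group but IMCD, and the other genes are near 0 in most groups outside the proximal tubule and DTL1.

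The genes that were high together in PTS3 stood in other proportions in DTL1, and some of them also in PTS2. By mean, DTL1 was the group next after PTS2 for Kap, Akr1c18, Serpina1a, Serpina1b and Serpina1f. Serpina1d stood at 0.733 to 1.13 times Serpina1f in the 3 PTS3 mice and at 0.792 to 1.41 times in the 5 PTS2 mice. In the 3 DTL1 mice it stood at 0.0362, 0.00707 and 0.00155 times. There Serpina1f was 87.3, 31.8 and 116.4 TPM and Serpina1d 3.16, 0.225 and 0.18 TPM. Akr1c18 stood at 0.25 to 0.572 times Serpina1f in PTS2, 0.723 to 0.92 times in PTS3 and 2.33 to 3.36 times in DTL1. The ratio of Kap to Akr1c18 was 128 to 216 in PTS2, 66.1 to 102 in PTS3 and 8.36 to 20.2 in DTL1. For both ratios the 3 groups did not overlap. The ratio of Kap to Serpina1f was 50.8 to 80.4 in PTS2 and 50.5 to 73.9 in PTS3, which overlapped, and 19.5 to 48.1 in DTL1. As a share of the PTS3 mean, the DTL1 mean was 20.4% for Akr1c18, 6.6% for Serpina1f, 3.78% for Serpina1b and 3.31% for Kap. It was 1.75% for Serpina1a and 0.103% for Serpina1d. Without mouse 1 the DTL1 mean fell from 1.188 to 0.203 TPM for Serpina1d, 1.217 to 0.395 for Serpina1a and 2498 to 1650 for Kap. The 8 proximal markers summed to 1337 ± 539.9 TPM (SD, n = 3) in DTL1, range 713.1 to 1652, which is 7.13% of their PTS3 sum, and the 3 straight-part markers to 3.75%. Of the 2 thin limb markers, the urea transporter Slc14a2 averaged 7555 TPM in DTL1, 4.631 in DTL2 and 2182 in IMCD. The other, Aqp1, averaged 97.38 TPM in DTL1, against 6582 in DTL2 and 495.3 in PTS3. The part of proximal RNA in the DTL1 values was not tested. These ratios were chosen after the values were seen and carry no test.

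**Figure D3:**
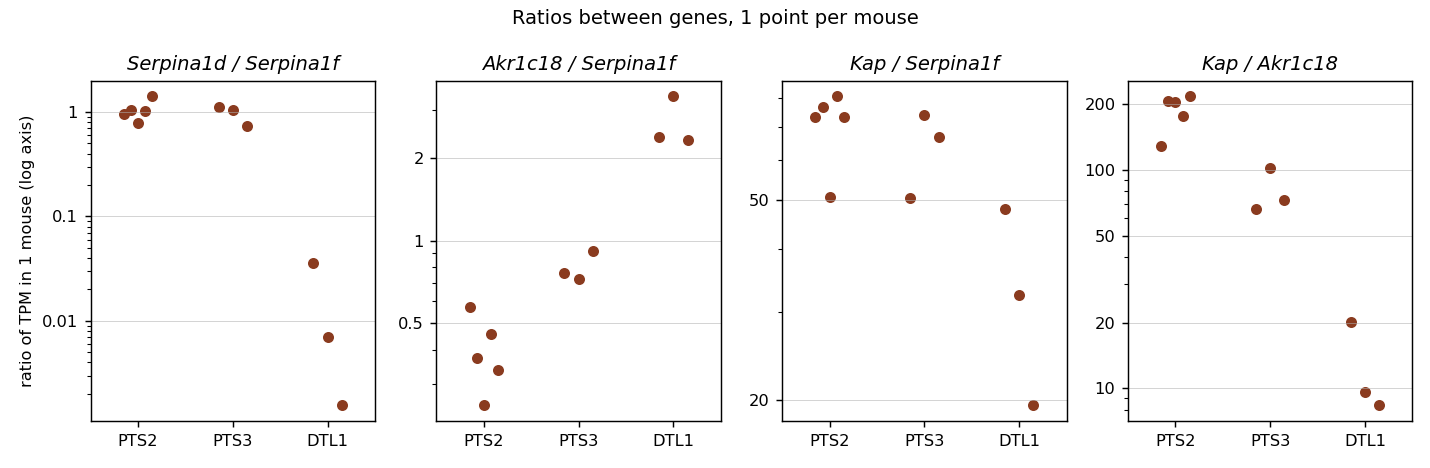
Ratio of the TPM of 2 genes within each mouse (y axis, log scale) in PTS2 (5 mice), PTS3 (3) and DTL1 (3), 1 point per mouse. The ratio of Serpina1d to Serpina1f lies between 0.733 and 1.41 in the proximal mice and at 0.0362 or less in the DTL1 mice.

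The 12 groups outside the proximal tubule were not used to choose the genes, although earlier results of these data were known at that choice. In these 12 groups the levels were tested with limma on log2(TPM + 1), adjusted by Benjamini-Hochberg over all genes. All 7 genes passed the filter on low values (at least 1 TPM in at least 3 mice), but Serpina1a did so only through the proximal groups, as it reached 1 TPM in 2 mice outside them, and its tests there rest on values near 0. The F-test over the 12 groups called the other 6 (adjusted p from 3.36e-21 for Akr1c18 to 0.0302 for Spp2) and also Serpina1a (0.0103), but 94.1% of the 32879 genes tested were called, so the count says nothing particular about these genes. A pairwise call needed an adjusted p under 0.05 and a log2 difference of at least 1.

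DTL1 exceeded DTL2 for Akr1c18, Serpina1f and Kap. On the log2 scale the difference was 5.16 (SE 0.40, limma adjusted p = 3.75e-14) for Akr1c18, whose DTL1 mice lay at 106.9 to 271 TPM and DTL2 mice at 4.74 to 45.8. For Serpina1f it was 4.73 (SE 0.37, limma adjusted p = 7.55e-14), and for Kap 4.27 (SE 1.02, limma adjusted p = 0.000746). In all 3 the mice of the groups did not overlap. Serpina1d was not called, at -0.38 (SE 0.37, limma adjusted p = 0.411), although it had matched Serpina1f in PTS3. The sum of the 4 copies differed by 4.31 (SE 0.42), but in DTL1 it was mostly Serpina1f, at 78.5 of 82.97 TPM on average. Serpina1a (0.61) and Serpina1b (0.84) were not called. Several marker sums of other cell types were also higher in DTL1, but not all. The 8 proximal markers summed to 713.1 to 1652 TPM in DTL1 mice and 57.56 to 343.1 in DTL2 mice. The 2 thick limb markers summed to 81.01 to 394.4 and 19.23 to 24.3, and 5 endothelial markers to 2764 to 3652 and 1018 to 1871. Of the thick limb markers, Slc12a1 overlapped, at 1.63 to 7.99 and 0.07 to 2.245. Of the endothelial markers, Kdr went the other way, at a mean of 21.14 TPM in DTL1 and 39.19 in DTL2. Leukocyte marker sums overlapped, at 29.61 to 222.4 and 97.36 to 124.8 TPM. Glomerular ones overlapped too, at 25.4 to 45.54 and 24.9 to 32.05. The collecting duct marker Aqp2 stood at 5.19 to 58.71 and 1.05 to 2.185 TPM. For Slc12a3, the distal convoluted tubule marker, the ranges were 2.48 to 14.74 and 0.82 to 1.385. Odorant and vomeronasal receptor genes summed to 2689 to 4286 TPM in DTL1 mice and 892.5 to 1117 in DTL2 mice. The part of these cell types and of the receptor background in the differences was not tested. Thus 3 of 7 were called higher and 0 lower, where 25.6% of all genes were called higher in DTL1 and 3.07% lower. The median difference over all genes was 0.55, and 0.00 after quantile normalization, under which the same number was called.

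Outer medullary groups (DTL1, DTL2, MTAL and OMCD) were compared with cortical ones (CTAL, DCT, CNT and CCD). The odorant and vomeronasal receptor background given above was uneven between the regions compared, and its part in the differences was not tested. The 8 proximal markers were uneven too: their mean sum was 51.57 to 152.8 TPM in the cortical groups, against 1337 in DTL1, 154.5 in DTL2, 8.055 in MTAL and 18.9 in OMCD. Single mice ranged widely about these means, from 15.1 to 423.6 TPM in DCT, 14.4 to 109.6 in CNT and 57.56 to 343.1 in DTL2. The part of the proximal markers was not tested either. Akr1c18 was higher by 2.32 (SE 0.18, limma adjusted p = 1.84e-14) and Serpina1f by 1.36 (SE 0.17, limma adjusted p = 5.91e-09) on the log2 scale, which makes 2 of 7 called higher and 0 lower beside 16.8% and 2.19% of all genes. Kap did not pass, at -0.51 (SE 0.48, limma adjusted p = 0.326). Both calls rested on DTL1: without it Akr1c18 differed by 0.68 and Serpina1f by -0.039, and Kap became the gene called, at -2.41 (limma adjusted p = 0.000165). The median difference over all genes was 0.47, and 0.07 after quantile normalization, under which Serpina1f fell short of the rule at 0.88 and Spp2 was called lower at -1.12. With a pseudocount of 5 Serpina1f stood at 0.98.

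Against the inner medullary groups (DTL3, ATL and IMCD), the outer medullary ones were higher in Kap by 3.36 (SE 0.53, limma adjusted p = 1.19e-06), in Akr1c18 by 2.23 (SE 0.21, limma adjusted p = 2.03e-12) and in Serpina1f by 1.82 (SE 0.19, limma adjusted p = 9.24e-11). So 3 of 7 were called higher and 0 lower, beside 5.51% and 2.26% of all genes. The proximal markers summed to 23.25 TPM in DTL3, 23.37 in ATL and 1.666 in IMCD on average. These lay below DTL1 (1337) and DTL2 (154.5), while MTAL (8.055) and OMCD (18.9) lay below DTL3 and ATL. The part of the proximal markers was not tested. Without DTL1 only Kap of the 7 was called, at 1.46 (limma adjusted p = 0.0432), with Akr1c18 at 0.58 and Serpina1f at 0.42. Spp2, Serpina1a, Serpina1b and Serpina1d were called in neither regional comparison.

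**Figure D4:**
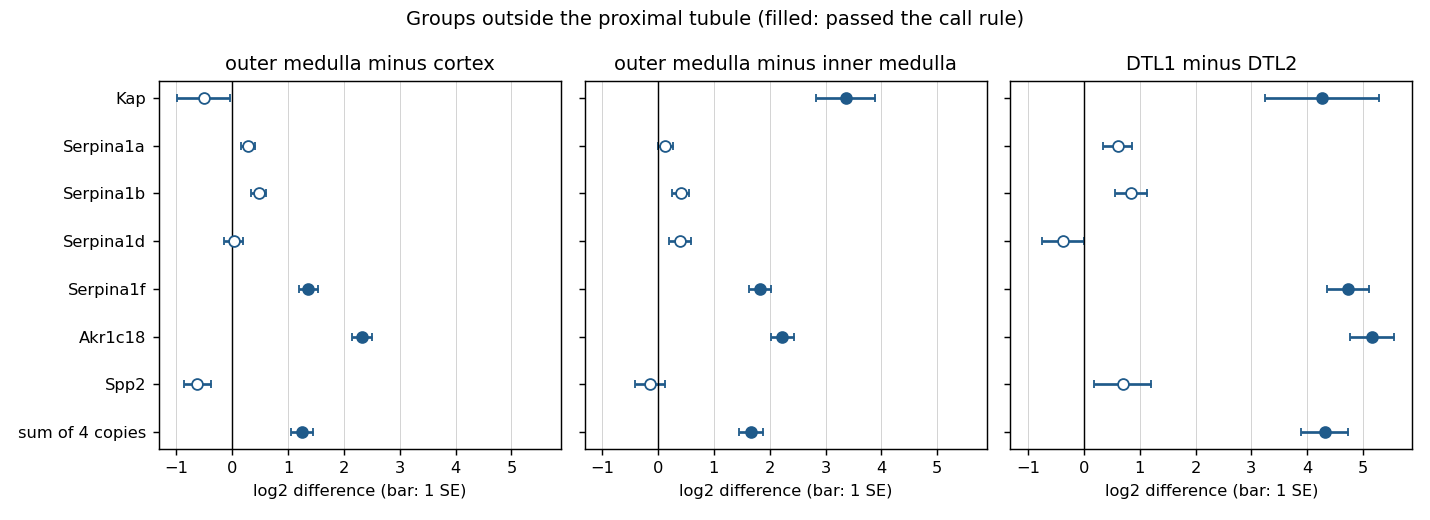
Log2 differences (x axis, points, with bars of 1 SE) for the 7 genes and the sum of the 4 Serpina1 copies (rows) in the 3 comparisons that hold no proximal sample. Filled points passed the call rule: Serpina1f, Akr1c18 and the sum of copies in all 3 panels, and Kap in the second and the third. In DTL1 the sum of copies is mostly Serpina1f.

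Genes related to the 7 by function or family were tested across the proximal parts from lists of names. Of 13 androgen-responsive genes, 11 were higher in PTS2 than in PTS1 and 0 lower, with a median log2 difference of 4.14, where 5.25% of all genes were called higher and 4.6% lower and the median over all genes was -0.16. Slc7a13 rose by 10.03 (SE 0.44, limma adjusted p = 3.8e-23) and Acsm3, a medium-chain acyl-CoA synthetase, by 9.91 (SE 0.62, limma adjusted p = 1.16e-17). From PTS2 to PTS3, where Kap and Akr1c18 were higher, 1 of the 13 rose, Cyp7b1, an oxysterol hydroxylase. The 5 that fell were Odc1, Slco1a1, Cyp2j13, Cyp2e1 and Cyp4b1, with Cyp2e1 going from 988.6 to 0.317 TPM on average. The background of that comparison was 0.779% higher and 4.07% lower. From PTS1 to PTS3, 8 rose and 2 fell, beside 4.09% and 6.33% of all genes. These lists were made with earlier results of these data known, and Slc7a13 and Cyp7b1 are also markers of the straight part here.

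The relatives of the 7 genes did not move as a block. Counts for them are from PTS1 to PTS2, where 5.25% of all genes were called higher and 4.6% lower. Of 16 other serpins 10 were tested between PTS1 and PTS2, with 2 higher and 2 lower. The higher ones were Serpina1c and Serpinf2. Serpina1c passed the filter only through PTS2 and PTS3, which favours a call of higher in PTS2 though it does not fix it. Of its stretches of 50 bases 73.3% occur in other copies, so it is no separate result. Serpinf2 is the gene for alpha-2 antiplasmin and rose from 113.8 to 1266 TPM. The lower ones were Serpinc1, the gene for antithrombin, and Serpind1. Of 16 other aldo-keto reductases 3 rose and 4 fell. Akr1c14, a hydroxysteroid dehydrogenase close to Akr1c18, rose from 1.48 TPM in PTS1 to 382.6 in PTS2 and was 589.7 in PTS3. Akr1c21 was at 1653, 1531 and 1570 TPM in the 3 parts and was not called. Of 11 steroid receptor and enzyme genes tested 5 rose and 1 fell. Hsd17b2, which oxidizes estradiol and testosterone, went from 0.207 to 74.3 TPM and Hsd11b1, which regenerates active glucocorticoid, from 3.62 TPM to 698.6 and then 2779 in PTS3. From PTS2 to PTS3, Hsd11b1 was the 1 of these 11 that rose and 4 fell, among them Hsd11b2 and Srd5a2, beside 0.779% and 4.07% of all genes. Of 7 cystatin-type and secreted genes tested beside Spp2, Kng2 and Hrg rose and Spp1 fell, from 2576 to 13.6 TPM. Hrg, too, passed the filter only through PTS2 and PTS3, so its call has the same limit from the filter. Spp1 shares the name secreted phosphoprotein with Spp2 but is osteopontin, an unrelated protein.

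The genes most like each member across the 15 group means, by Pearson's r on log2(TPM + 1), are a description, since all of them share the same libraries. The 7 were left out of each other's ranking: among them Serpina1a and Serpina1b had r = 0.992 and Serpina1f and Akr1c18 0.981. Of other genes, Kap was most like Slc7a13 (r = 0.95), Acsm3 (0.95) and Napsa (0.95). Akr1c18 was most like Rhox6 (0.98), Acsm3 (0.98) and Akr1c14 (0.97). Serpina1f was most like Mep1b (0.995), the gene of the brush border protease meprin beta, Slc22a19 (0.99) and Akr1c14 (0.99). Serpina1d was most like Serpina1c (0.99), Slc22a26 (0.99) and Cpb2 (0.98). Serpina1a was most like Scgb1c1 (0.995), Serpina1c (0.99) and Cpb2 (0.99), and Serpina1b most like Scgb1c1 (0.99), Ceacam2 (0.98) and Cryaa (0.97). Copies a to e can share reads, so the likeness among them is no separate result. Serpina1a, Serpina1b and Serpina1d were near 0 in most groups outside PTS2 and PTS3, so their r values rest mainly on those parts. Spp2 was most like Gldc (0.99), the glycine decarboxylase gene, which averaged 153 TPM in PTS1, 4.32 in PTS2 and 0 in PTS3, followed by Cyp2d26 (0.99) and Sectm1b (0.98).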

How the data were processed

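Per the submitters' processing notes, STAR 2.5.4a and RSEM 1.3.0 are among the tools used, and the genome build, annotation and strand setting are not given in the sources used here. The deposited table holds TPM computed by the authors, with columns summing to 999998.6 to 1000190.3. Each column was assigned by its name, and 1 PTS2 column whose piece letter matched no sample title entered PTS2 as an unnumbered mouse. The 3 single-cell samples were not analysed here, and the authors' mean columns were not used. No sample columns were identical (0 pairs).

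Levels are plain means of the pieces of a mouse. For the tests, pieces were averaged as log2(TPM + 1), which gave 53 units, and genes were kept where that value, on the TPM scale, was at least 1 in at least 3 units (32879 genes). After the results were seen, the filter was also applied to plain mean TPM (33793 genes), as an added alternative. limma 3.58.1 in R 4.3.3 (lmFit, eBayes with trend) was fitted over all 15 groups without a block, and the sum of the 4 Serpina1 copies entered as 1 more row. Log2 differences understate the change of low genes. The fit was tested on simulated data with 200 of 32880 rows changed by 2 log2 units: for DTL1 minus DTL2 85.5% were recovered with 9 others called, for outer medulla minus cortex 99.5% with 1, for PTS2 minus PTS1 94% with 3 and for the F-test 87.5% with 10.

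The labels give no cultures or litters, and mice numbered alike in different groups are not the same mouse, since the series text counts 53 mice and there are 53 units. Over 290 pairs of units with the same number in different groups the median correlation of deviations was 0, so the numbers do not pair. Genes named are the 7, the listed relatives, and the 3 most alike genes per member, the 7 themselves left out, with a group mean of at least 10 TPM, passing over predicted, Rik, mitochondrial, ribosomal, microRNA and pseudogene symbols. The members and lists were chosen with earlier results of these data known. The values of 1 listed gene, which the counts of its list include, are not reported here. The ratios between genes, the shares of PTS3, the overlap alignment of promoters, the transcripts compared and the floor of 1 TPM for single mice that stand apart were chosen after values were seen. Tables and figures used Python 3.11.15, pandas 2.3.3, Biopython 1.88 and matplotlib 3.10.9.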

Additional observations from a re-analysis of the deposited data

Results flagged for a closer look

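In groups of 4 or 5 mice with a mean of at least 1 TPM, 19 sets of values were screened for a mouse far from the others by Dixon's test, which chance passes in about 1 of 20 sets, and 4 stood out. In CCD mouse 3, Serpina1d was 3.405 TPM against 0.28 to 0.925 in the other 4 mice, Serpina1f 3.865 against 0.33 to 1.005, and the sum of the 4 copies 7.49 against 0.67 to 1.975. Its piece b carried them, with 6.04 TPM of Serpina1d, 6.95 of Serpina1f and 804.3 of Kap, against 0.77, 0.78 and 74.1 in piece a. The 8 proximal markers summed to 182.9 TPM in piece b and 33.4 in piece a. In ATL mouse 4, Akr1c18 was 5.67 TPM against 0 to 0.31 in the other 3 mice, while Serpina1d and Serpina1f were listed at 0. There 576 receptor genes were at 1 TPM or more, and the proximal markers summed to 46.2 TPM. The part of proximal RNA or of that background in these values was not tested.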

How the results depend on the processing

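The count of members differing among the 12 groups was 7 and became 4 with a pseudocount of 5. The 7 include Serpina1a, which passed the filter only through the proximal groups, so its calls in this section rest on values near 0. The 2 members called between outer medulla and cortex became 4 with a pseudocount of 0.1, 1 with a pseudocount of 5 and 1 without DTL1, and the 3 called between outer and inner medulla became 1 without DTL1. Leaving out 1 mouse at a time, the 3 called between DTL1 and DTL2 ranged from 3 to 5, the highest without DTL1 mouse 5, when Serpina1a (1.07) and Serpina1b (1.45) also passed. With the mouse number as a replicate block, 6, 2, 3 and 3 members were called in these 4 tests, and no call count moved by over 1.5 times. The filter on plain mean TPM, added after the results were seen, left these 4 counts as they were, and the 12 list genes called between PTS2 and PTS3 became 11.

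Signs that turned were those of differences near 0 or resting on DTL1. Between outer medulla and cortex, Serpina1d turned from 0.03 to -0.31 with a pseudocount of 0.1, -0.41 with quantile normalization, -0.0050 with all samples and the mouse as a random block, and -0.079 without DTL1, with a range of -0.12 to 0.11 over mice left out. Serpina1a turned to -0.064 with quantile normalization, and without DTL1 Serpina1f turned to -0.039 and the sum of copies to -0.13. Between outer and inner medulla, Serpina1a turned to -0.057 with quantile normalization and -0.070 without DTL1, and Spp2 ranged from -0.26 to 0.044 over mice left out. Serpina1d ranged from -0.98 to 0.11 between DTL1 and DTL2. Apart from these settings, the cause was not tested. Quantile normalization set the PTS3 minus PTS2 difference of Kap to 0, since it ranks first in both. Likeness was lower by Spearman's rho for all 21 named pairs. Depth is unknown, so the counting error of low values cannot be given.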
